A study of Mus musculus with 41 samples.

Results

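The mitosis genes described here are 54 genes listed by name for their part in cell division, from the kinases that start mitosis to the proteins that pinch the daughter cells apart. The list was drawn up by gene name, with no threshold on a measured value. On the arrays, 53 of the 54 had at least 1 probe set (a set of short oligonucleotides read as a single value) that the annotation table assigns to that gene alone. The cyclin B1 gene, Ccnb1, had none and was not analysed here. For each of the 53, the probe set of highest mean log2(signal + 32) was used, and all 53 passed the filter on low values, among 11947 genes tested of 18193 measured. Values of different probe sets depend on the probes, so every comparison below is of a gene with itself across arrays.

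The study profiled 41 RNA samples, each on its own array, from B cell precursors sorted by flow cytometry out of untreated C57BL/6 mice, an inbred laboratory strain, all with the wild-type form of Pax5, which encodes the master regulator of B lineage commitment. Sorted were common lymphoid progenitors (CLP), with 7 arrays, and the Hardy fractions A and B, with 7 arrays each, and C, D, E and F, with 5 each. In the Hardy scheme, A holds pre-pro-B cells, B and C pro-B cells that rearrange their heavy chain genes, D small pre-B cells that rearrange light chain genes, E immature B cells that carry surface IgM, and F mature recirculating B cells. The labels give no sorting gates, tissue, age or sex, and leave it unsaid if arrays of a population stem from different animals. The p-values below therefore rest on the spread among these samples alone, and that spread may be technical.

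Cells in mitosis are driven by the kinase Cdk1 bound to its cyclins, while the Plk and Aurora kinases build the spindle, the checkpoint proteins Bub1, Bub1b, Bub3, Mad2l1 and Ttk hold anaphase back until every chromosome is attached, and the anaphase-promoting complex with Cdc20 then destroys securin and the cyclins. Most of these genes are transcribed from late S phase to mitosis and are nearly silent in resting cells, so their RNA is widely used as a sign of dividing cells. B cell precursors are known for alternating bursts of division with pauses in which the immunoglobulin genes rearrange. A known control element is the CHR, the cell cycle genes homology region, which is bound by the DREAM complex in resting cells and by the MuvB complex with B-Myb and Foxm1 in dividing cells, often near CCAAT boxes bound by the factor NF-Y.

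Promoters are shown first because the members share letters in them that the choice of genes did not use. RefSeq promoter windows of 250 bases before to 50 bases after a gene's start, on the mouse build GRCm38.p6, were found for 46 of the 53 members, with 49 windows in all. The CHR was searched as TTTGAA or TTCGAA on both strands, so that TTCAAA counts as well, and the CCAAT box as CCAAT on both strands, so that ATTGG counts as well. CHR letters stood in 39 of the 49 windows (79.6%), against 19.2% of all 32851 windows in the table. In the last 100 bases of the window, 35 of 49 (71.4%) had them, against 5.31% of all. CCAAT letters stood in 36 of 49 windows (73.5%), against 37.4% of all, and 33 windows (67.3%) had both kinds, against 7.52%. A match of letters is a description of the sequence and does not show that a protein binds there.

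The sequences that follow are those of members on which results below turn, printed 5′ to 3′ along the gene's own strand, with CHR and CCAAT letters on either strand in capitals. All but Mki67 show 100 bases before to 50 after the start, and Mki67 shows the whole window because the first of its 2 CHR matches, at -116, and its CCAAT matches lie further upstream. A further TTTGAA of Ccnb2, at -167, and a further ATTGG of Cdk1, at -208, lie outside the stretches shown. In Cdca8 the last TTTGAA and an ATTGG share 1 base. Nusap1 and Pttg1 have neither kind of letters in the stretch shown.
Cdk1 (chr10:69352863-69353012, minus strand): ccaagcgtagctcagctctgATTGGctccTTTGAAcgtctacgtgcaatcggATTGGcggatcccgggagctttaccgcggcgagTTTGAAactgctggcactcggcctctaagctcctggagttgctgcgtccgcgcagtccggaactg
Ccnb2 (chr9:70421505-70421654, minus strand): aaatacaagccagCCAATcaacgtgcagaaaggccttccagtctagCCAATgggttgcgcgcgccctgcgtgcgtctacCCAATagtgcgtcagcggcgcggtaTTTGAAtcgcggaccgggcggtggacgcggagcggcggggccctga
Cdc20 (chr4:118437294-118437443, minus strand): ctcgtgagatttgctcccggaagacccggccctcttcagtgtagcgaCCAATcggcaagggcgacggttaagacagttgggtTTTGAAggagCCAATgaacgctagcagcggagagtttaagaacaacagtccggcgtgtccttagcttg
Cdca8 (chr4:124936868-124937017, minus strand): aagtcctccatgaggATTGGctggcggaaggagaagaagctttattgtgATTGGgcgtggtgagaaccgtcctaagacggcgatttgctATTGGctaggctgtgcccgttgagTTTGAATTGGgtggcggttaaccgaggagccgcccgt
Kif11 (chr19:37376282-37376431, plus strand): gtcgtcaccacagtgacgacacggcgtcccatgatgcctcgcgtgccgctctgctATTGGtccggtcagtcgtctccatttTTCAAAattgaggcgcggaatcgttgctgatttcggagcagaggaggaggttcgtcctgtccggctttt
Kif23 (chr9:61946750-61946899, minus strand): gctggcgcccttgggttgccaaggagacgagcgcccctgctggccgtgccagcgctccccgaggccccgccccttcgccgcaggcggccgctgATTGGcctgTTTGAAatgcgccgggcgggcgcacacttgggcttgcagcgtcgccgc
Mki67 (chr7:135716330-135716629, minus strand): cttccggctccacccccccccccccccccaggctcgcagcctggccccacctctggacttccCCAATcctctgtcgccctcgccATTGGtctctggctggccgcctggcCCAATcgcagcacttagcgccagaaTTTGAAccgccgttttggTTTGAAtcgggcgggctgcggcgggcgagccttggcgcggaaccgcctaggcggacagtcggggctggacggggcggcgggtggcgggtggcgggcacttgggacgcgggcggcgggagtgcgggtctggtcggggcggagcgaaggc
Nusap1 (chr2:119618198-119618347, plus strand): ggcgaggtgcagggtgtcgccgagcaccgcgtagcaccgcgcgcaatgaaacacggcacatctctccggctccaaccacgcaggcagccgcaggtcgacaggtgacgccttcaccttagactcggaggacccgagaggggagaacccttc
Pttg1 (chr11:43425932-43426081, minus strand): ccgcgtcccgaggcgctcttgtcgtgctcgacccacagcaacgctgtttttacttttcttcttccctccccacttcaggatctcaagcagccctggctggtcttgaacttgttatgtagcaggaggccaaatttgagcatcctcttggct
The 10 measured members whose windows had no CHR letters were Birc5, Cenpe, Cenph, Kif18a, Mad2l1, Nek2, Nuf2, Nusap1, Plk4 and Pttg1. Their median log2 difference between E and D was -1.75, and 9 of the 10 fell, against 4.21% of all genes tested. The 36 members with CHR letters had a median of -1.69, and 34 of them fell. Of all 53 members 49 fell at that step, so this split had little room to show a difference, and none was tested.

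The deposited values are MAS5 signals, linear intensities that the authors had scaled so that each array's mean without its lowest and highest 2% was 500. Array medians nevertheless ranged from 69.1 to 153.1. A arrays 4, 6 and 7 and B arrays 1 and 4 had the brightest single probe sets among the A and B arrays, from 96976 to 409322, against 44759 to 69129 on the other A and B arrays. Markers of other cell types moved with the populations, as sums of signals over lists named by cell type. The 10 measured natural killer and T cell markers summed to 47636 to 74501 in A, against 3275 to 8593 in the CLP and 348 to 1413 in B. Of these, the granzyme gene Gzma had a mean signal of 30737 in A and 111 in the CLP. Cd3e, which defines T cells, had 172 in A and 509.8 in the CLP. Others on the list went the other way, Cd3g with 590 against 486, Cd8a with 140 against 106 and Thy1 with 4091 against 1931. The 8 plasmacytoid dendritic cell markers summed to 15392 to 40297 in A against 11426 to 16589 in the CLP, and the 8 monocyte markers to 7346 to 31639 against 7663 to 13473. The 8 measured B lineage markers summed to 2547 to 67208 across the A arrays, with 3 to 8 of them at or above the array median, and 6 of the 8 had a lower mean signal in A than in the CLP, Pax5 with 122 against 1230. The exceptions were Ms4a1, with 222 against 113, and Vpreb1, with 17390 against 12764. Vpreb1, a part of the surrogate light chain, measured 53963, 22307 and 38300 on A arrays 4, 6 and 7 and 509 to 3823 on the other A arrays. The 12 neutrophil markers summed to 57434 to 81905 in C, against 2939 to 22159 in B and 18815 to 25591 in D, and to 105815 on E array 2 against 12694 to 28479 on the other E arrays. The 8 measured erythroid markers also summed highest among the E arrays on E array 2, at 25719 against 9148 to 11876. There the red cell anion exchanger gene Slc4a1 had a signal of 8842 against 948 to 1950 on the other E arrays. Ermap had 4852 against 769 to 1532, Alas2 961 against 173 to 316 and Klf1 573 against 66.8 to 155. The haemoglobin gene Hba-a1 had 5.3 against 9.8 to 48.2, below the array median on every E array. The monocyte sum on E array 2 was 15654 against 4520 to 5316. The part of these cells in the results below was not tested.

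The mitosis genes were highest in B and lowest in E and F, and between these lay D, the CLP, C and A. The median of the 53 members on each array, as log2(signal + 32), averaged 11.38 ± 0.18 in B (SD, n = 7 arrays), 11.02 ± 0.23 in D (n = 5), 10.98 ± 0.35 in the CLP (n = 7), 10.75 ± 0.70 in C (n = 5), 10.39 ± 0.34 in A (n = 7), 9.68 ± 0.27 in F (n = 5) and 9.33 ± 0.48 in E (n = 5). Neighbours in that order overlapped in the range of their arrays in every case. Between D and E the arrays did not overlap, at 10.76 to 11.29 in D against 8.998 to 10.17 in E. RNA from whole populations was measured, so fewer dividing cells and less of these RNAs per cell cannot be told apart.

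**Figure D1:**
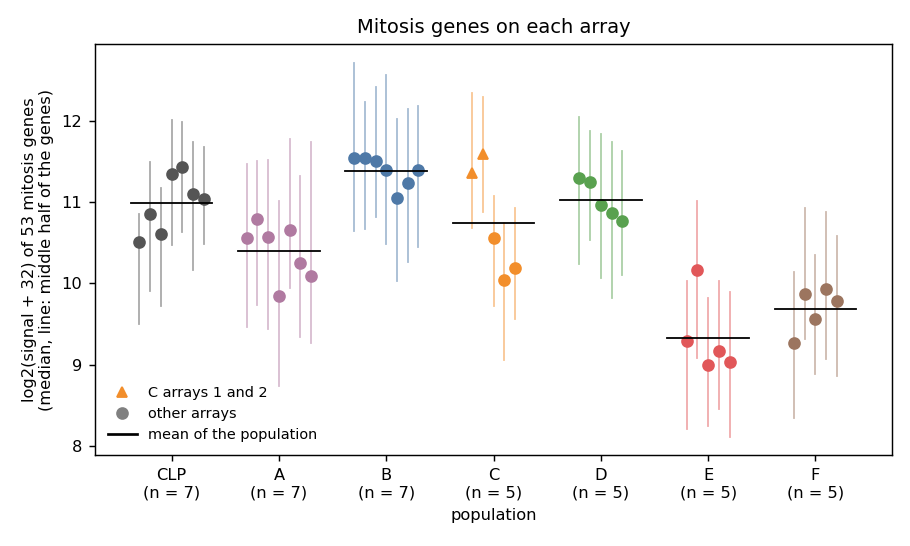
Median of the 53 mitosis genes on each of 41 arrays, as log2(signal + 32), by population; the vertical line through each point spans the middle of the genes from lower to upper quartile and the black bar is the population's mean. B lies highest at a mean of 11.38, E and F lowest at 9.33 and 9.68, and C arrays 1 and 2 (triangles, 11.36 and 11.59) lie above C arrays 3 to 5 (10.05 to 10.55).

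Of the 53 members, 40 had their highest population mean in B, a population in which 12.5% of all tested genes peaked. Cdk1, Foxm1, Plk1, Aurka and Cdca5 peaked in the CLP, Plk4, Nek2, Kif18a, Kif22 and Racgap1 in D, Pttg1 and Mki67 in A, and Cdc25b in C. E held the lowest mean of 47 members, against 9.93% of all genes, F that of Aurka, Bub3 and Pttg1, and C that of Kif22, Kif23 and Mki67. All 53 passed the limma F-test across the 7 populations at a Benjamini-Hochberg adjusted p under 0.05, as did 73.3% of all genes, and the highest adjusted p among them was 0.00495, for Racgap1.

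The members also varied together from array to array. Each member's 41 values were correlated with the median of the other members on the same arrays, as a description, since arrays of a population share their cells and all values share the array's scaling. The median Pearson correlation was 0.85, and 36 members were above 0.8. With each population's mean removed first, the median was 0.68, with a range from -0.03 to 0.91. Kif22 (0.25), Mki67 (0.27) and Pttg1 (0.31) followed the others least.

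**Figure D2:**
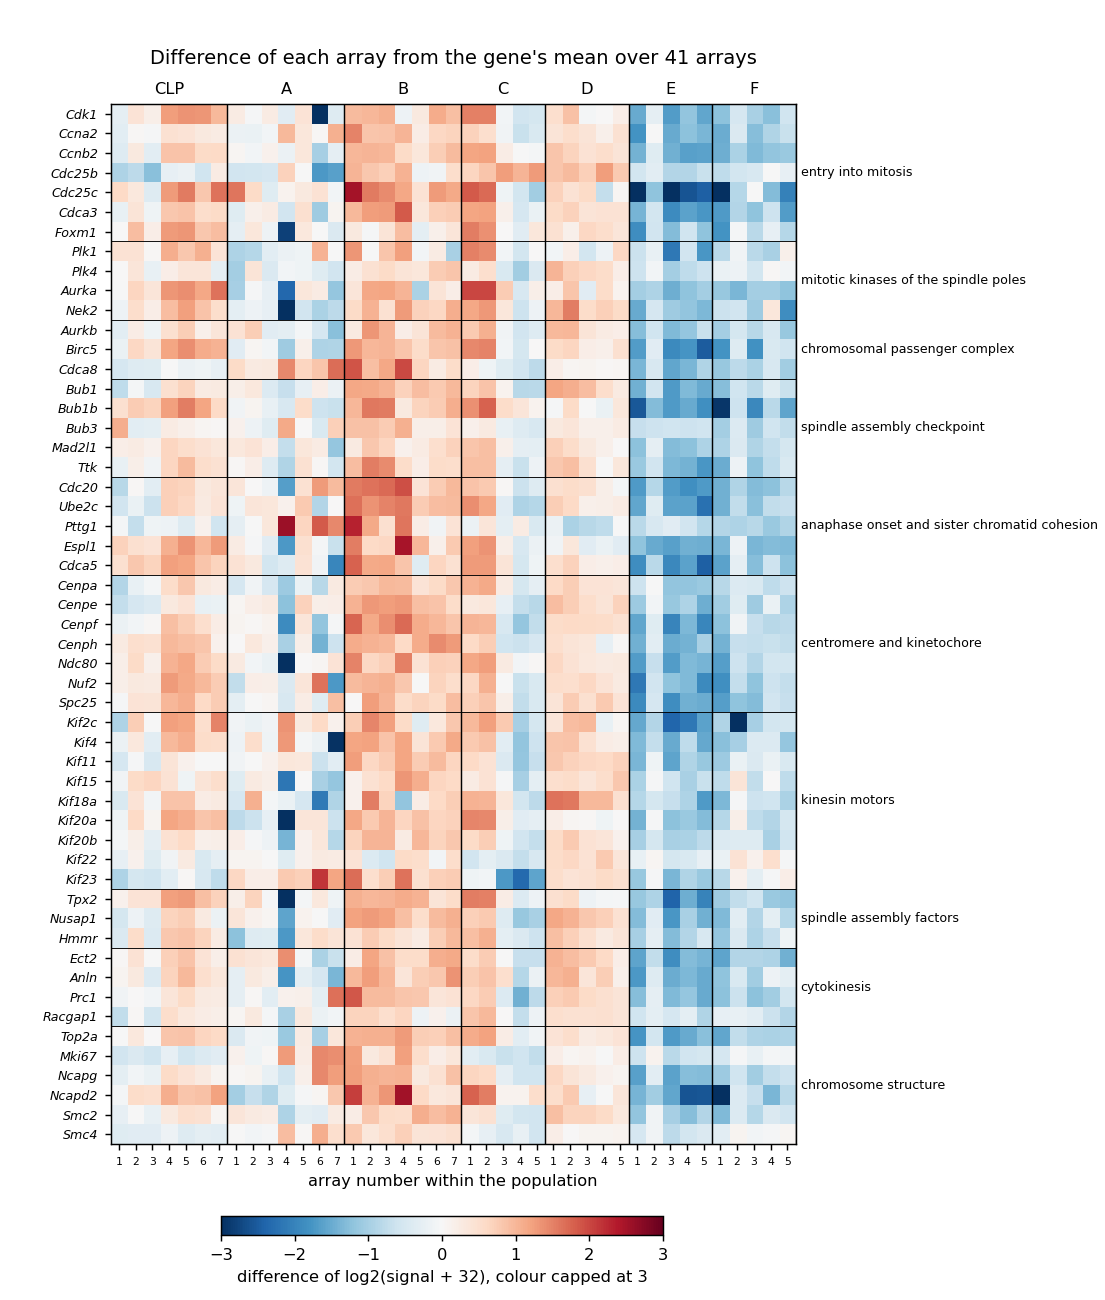
Each mitosis gene (rows, grouped by role) on each of the 41 arrays (columns, by population and array number), as the difference of log2(signal + 32) from the gene's own mean over all arrays, with the colour capped at 3. Red in B and blue in E and F runs through nearly every row, while the row of Kif22 is pale and those of Mki67, Pttg1 and Smc4 are reddest on some A and B arrays, and C arrays 1 and 2 are redder than C arrays 3 to 5.

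From the CLP to A, 17 members fell and 5 rose at an adjusted p under 0.05, against 25.5% and 11.5% of all genes. The share that fell, 17 of 53, was not far above the background. Nek2, a kinase that separates centrosomes, fell most, and fell by 1.56 ± 0.37 on the log2 scale (SE, adjusted p = 0.000921). Aurka, the Aurora A kinase of the spindle poles, fell by 1.53 ± 0.36 (adjusted p = 0.000855). The others that fell were Kif20a (-1.38), Birc5 (-1.24), Ndc80 (-1.24), Foxm1 (-1.22), Espl1 (-1.20), Cdk1 (-1.18), Bub1b (-1.13), Cdca5 (-1.11), Ncapd2 (-1.02), Tpx2 (-1.02), Kif15 (-0.94), Cenph (-0.91), Anln (-0.89), Top2a (-0.78) and Spc25 (-0.59). Those that rose were Kif23, a kinesin of the midzone, by 1.35 ± 0.28 (adjusted p = 0.000193), Pttg1, the securin that holds separase inactive, by 1.21 ± 0.30 (adjusted p = 0.00152), Cdca8 (1.08), Mki67 (1.07) and Smc4 (0.67). Arrays did not overlap for Nek2 and Cdca5 below, against 5.41% of all genes, and for Kif23, Cdca8, Mki67 and Smc4 above, against 3.98%. The members' median difference was -0.50 and that of all genes -0.22. With quantile normalization 2 rose and 15 fell, Mki67 (0.01) and Cdca8 (0.28) were no longer called and Smc4 turned to -0.087; with each array centred on its median, 6 rose and 10 fell. Without A arrays 4, 6 and 7, 4 rose and 9 fell. The calls of Kif23, Pttg1, Cdca8, Smc4, Ncapd2 and Top2a were lost when a gene's probe sets were averaged. The other probe sets of Kif23 (-0.53 and -0.30) and of Pttg1 (-0.15 and -0.16) were not called. Among single omissions, the call of Spc25 was lost in 28, that of Ncapd2 in 8, that of Tpx2 without A array 4 and that of Cdk1 without A array 6. The summed natural killer and T cell markers were higher on every A array than on any CLP array, and their part in this comparison was not tested.

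From A to B, 37 of the 53 members rose and 0 fell, against 16.8% and 14.5% of all genes. Without adjustment, at p under 0.05 in the same limma fit, 43 were higher and 0 lower, against 21.8% and 19.4% of all genes. Nek2 rose by 1.80 ± 0.37 (adjusted p = 0.000196) and Cenpf, a large kinetochore protein that accumulates in G2, by 1.63 ± 0.30 (adjusted p = 4.35e-05). All 7 measured kinetochore genes and all 3 spindle assembly genes rose, as did 4 of the 7 entry genes. The 2 members that did not lie above 0 were Pttg1 (-0.07 ± 0.30, adjusted p = 0.886) and Mki67 (-0.01 ± 0.19, adjusted p = 0.967). Another probe set of Pttg1 rose by 1.13 and was called, and its remaining set differed by -0.19 and was not called. For 13 members every B array lay above every A array, against 2.11% of all genes. In a fit of only the A and B arrays, 24 rose. Leaving out 1 array at a time lost the call of Nuf2 in 31 of the omissions, of Ect2 in 7 and of Prc1 in 6, of Aurka without A array 4, of Cdk1 without A array 6 and of Spc25 without B array 2.

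B against the CLP gives the net change over both steps. In B, 19 members were higher than in the CLP and 0 lower, against 8.77% and 18.9% of all genes. Without adjustment, 26 were higher and 0 lower, against 11.8% and 26.5%. The leading genes were Kif23, which was higher by 1.44 ± 0.28 (adjusted p = 0.000122), and Cdca8, borealin, higher by 1.32 ± 0.21 (adjusted p = 8.14e-06). The others were Cenpe (1.22), Cdc20 (1.15), Ube2c (1.15), Pttg1 (1.14), Cdc25b (1.08), Mki67 (1.06), Cenpf (0.97), Kif11 (0.96), Nusap1 (0.96), Bub1 (0.90), Smc4 (0.84), Ncapg (0.75), Prc1 (0.71), Ccna2 (0.66), Cenpa (0.65), Smc2 (0.62) and Kif20b (0.60). Arrays did not overlap for 8 of them, against 5.02% of all genes. Foxm1, a transcription factor that drives many of these genes, and Aurka were the lowest, at -0.53 ± 0.35 and -0.45 ± 0.36, with adjusted p of 0.264 and 0.383. Centring each array on its median raised the median of all genes by 0.42 in this comparison, and 33 members were then called higher. Quantile normalization gave 13. The calls of Bub1, Cenpf, Kif11, Kif20b and Nusap1 were lost when a gene's probe sets were averaged. Neither of the other probe sets of Kif23 was called (0.46 and 0.70). Single omissions lost the call of Prc1 in 10 cases, Cenpa in 8, Kif20b in 5 and Ccna2 in 3, and of Smc2 without CLP array 1.

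From B to C, 24 members fell and 0 rose, against 8.8% and 14.2% of all genes. Without adjustment 31 were lower and 0 higher, against 12.4% and 22.5% of all genes. Kif23 fell by 2.10 ± 0.31 (adjusted p = 1.98e-06) and Cdca8 fell by 1.38 ± 0.23 (adjusted p = 2.18e-05), followed by Cenpf (-1.35), Cenpe (-1.26), Nusap1 (-1.22), Cenph (-1.17), Mki67 (-1.17), Ube2c (-1.16), Cdc20 (-1.15), Prc1 (-1.14), Kif11 (-1.13), Kif4 (-1.06), Bub1 (-0.97), Pttg1 (-0.93), Ncapg (-0.90), Smc2 (-0.87), Smc4 (-0.84), Ccna2 (-0.83), Kif15 (-0.82), Ect2 (-0.82), Kif20b (-0.80), Plk4 (-0.75), Bub3 (-0.75) and Kif22 (-0.63). The highest differences were those of Cdc25b, a phosphatase that activates Cdk1 (0.46 ± 0.29, adjusted p = 0.262), and Aurka (0.41 ± 0.39, adjusted p = 0.491). Arrays did not overlap for 6 members, Cdca8, Cenpe, Kif11, Kif23, Mki67 and Smc4, all of them lower in C, against 5.47% of all genes, and for 0 members higher, against 7.6%. Without C arrays 1 and 2, 36 members fell and 0 rose, with median centring 35 fell and with quantile normalization 20. The calls of Bub3, Kif11, Kif20b, Kif22, Nusap1, Plk4 and Pttg1 were lost when a gene's probe sets were averaged. Neither of the other probe sets of Kif23 was called (-0.58 and -0.98). The calls of Kif15 and Kif4 were lost in 27 and 24 single omissions and those of Ect2 and Pttg1 in 6 each. Without C array 4, the calls of Ccna2, Kif20b, Plk4, Ube2c, Ect2, Kif15 and Kif4 were lost. Without C array 5, those of Ccna2, Kif20b, Ncapg, Ect2, Kif15, Kif4 and Pttg1 were lost. Leaving out single arrays gave 17 to 30 members lower, the fewest without C array 4.

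From C to D, 9 members rose and 0 fell, against 7.46% and 13.6% of all genes. They were Kif23 (1.66), Kif22 (1.04), Nusap1 (1.04), Kif11 (0.93), Cenpe (0.88), Plk4 (0.85), Bub1 (0.81), Smc2 (0.76) and Mki67 (0.67), with adjusted p from 8.69e-05 for Kif22 to 0.0359 for Bub1. The calls of Kif22, Kif11, Cenpe and Plk4 were lost when a gene's probe sets were averaged, and the 2 other probe sets of Kif22 differed by -0.09 and 0.07, neither called. The lowest were Bub1b (-0.70 ± 0.33, adjusted p = 0.133) and Aurka (-0.63 ± 0.43, adjusted p = 0.311). Arrays did not overlap for 5 members, Cenpe, Kif22, Kif23, Mki67 and Smc4, against 11.3% of all genes. Without adjustment, 14 members were higher and 1 lower, against 12.7% and 20.7% of all genes. The count rested on which C arrays were used: it was 17 without C arrays 1 and 2, and 4 without C array 4 and also without C array 5. Cenpe, Nusap1, Smc2, Bub1 and Mki67 lost their calls in either omission.

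D compared directly with B had 8 members lower and 0 higher, against 14.7% and 15.9% of all genes, so the share of members called was no greater than that of genes in general. The lowest were Pttg1 (-1.41 ± 0.33, adjusted p = 0.00105) and Espl1, separase (-1.15 ± 0.33, adjusted p = 0.00714), and the others that were called were Cdca8 (-0.97), Cdc20 (-0.96), Cenph (-0.87), Bub1b (-0.86), Ube2c (-0.86) and Smc4 (-0.42). Neither of the other probe sets of Pttg1 was called (0.22 and -0.73). The kinesins Kif18a (0.74 ± 0.39, adjusted p = 0.152) and Kif22 (0.41 ± 0.18, adjusted p = 0.071) were the highest. Without adjustment, 15 were lower and 1 higher, against 18.9% and 22.1% of all genes. Quantile normalization gave 4 lower and 1 higher, with Smc4 at 0.16 and not called, and median centring, which lowered the median of all genes by 0.42, gave 24 lower. Without D array 4, 5 members were lower. Single omissions lost the call of Ube2c in 7 cases, Bub1b in 5 and Smc4 in 4, and of Cdc20 without D array 5. Arrays did not overlap for 7 members lower in D, against 9.89% of all genes, and for 0 higher, against 9.87%.

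From D to E, 49 of the 53 members fell and 0 rose, against 4.21% and 3.89% of all genes. Without adjustment, 52 were lower and 0 higher in the limma fit, against 8.58% and 8.46%. The median difference of the members was -1.60 on the log2 scale and that of all genes 0.01. All 53 differences were below 0, and of the 49 members that fell, 45 fell by at least 1 and 9 by at least 2. The arrays of D and E did not overlap for 49 members, all lower in E, against 9.15% of all genes that were lower and 9.35% that were higher without overlap. Cdc25c, a phosphatase that activates Cdk1 at the start of mitosis, fell by 2.85 ± 0.51 (adjusted p = 8.94e-05) and Kif2c, a kinesin that takes microtubules apart at centromeres, fell by 2.13 ± 0.44 (adjusted p = 0.000627). The 4 members that were not called were Plk1 (-1.07 ± 0.42, adjusted p = 0.118), Pttg1 (-0.07 ± 0.36, adjusted p = 0.973), Kif20a (-1.07 ± 0.42, adjusted p = 0.122) and Mki67 (-0.60 ± 0.23, adjusted p = 0.104). Of the members called, Smc4 moved least and fell by 0.57 ± 0.16 (adjusted p = 0.0157). Without E array 2, which had the highest neutrophil and erythroid sums of the E arrays, 50 members fell, and leaving out single arrays gave 46 to 50.

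Between E and F no member was called, against 0.259% of all genes higher and 0.209% lower. Without adjustment, 5 of 53 were higher in F at p under 0.05 in the limma fit, Cdc25c, Kif11, Kif22, Kif23 and Smc4, and 0 lower, against 2.57% and 3.57% of all genes. The differences of 50 members lay above 0, with a median of 0.34 for the members and -0.02 for all genes. The highest were Cdc25c (1.14 ± 0.51, adjusted p = 0.754) and Kif23 (0.75 ± 0.33, adjusted p = 0.734), and the lowest Pttg1 (-0.32) and Bub3 (-0.14), neither of them called. Arrays of E and F overlapped for every member, while 3.1% of all genes were higher and 3.21% lower without overlap.

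Over the whole path, 42 members were lower in F than in the CLP and 0 higher, against 26.6% and 15.2% of all genes. Without adjustment, 44 were lower and 0 higher, against 30.6% and 18.4%. Bub1b, the checkpoint protein BubR1, fell by 2.49 ± 0.31 (adjusted p = 1.31e-08) and Cdc25c fell by 2.33 ± 0.48 (adjusted p = 0.000104). The 11 members not called were Cdc25b (0.12), Plk4 (-0.30), Pttg1 (-0.66), Cenpe (-0.52), Kif11 (-0.39), Kif15 (-0.70), Kif22 (0.31), Kif23 (0.34), Racgap1 (-0.46), Mki67 (0.27) and Smc4 (0.26), and of these Kif23 and Kif22 had the highest differences. In single omissions, the calls of Kif18a (6), Nusap1 (5), Cdca8 (4) and Cenpa (4) were lost in the number of cases given, and that of Bub1 without F array 1. The F and CLP arrays of 28 members did not overlap, against 22.6% of all genes. The comparisons share populations with each other, so their counts are not independent.

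**Figure D3:**
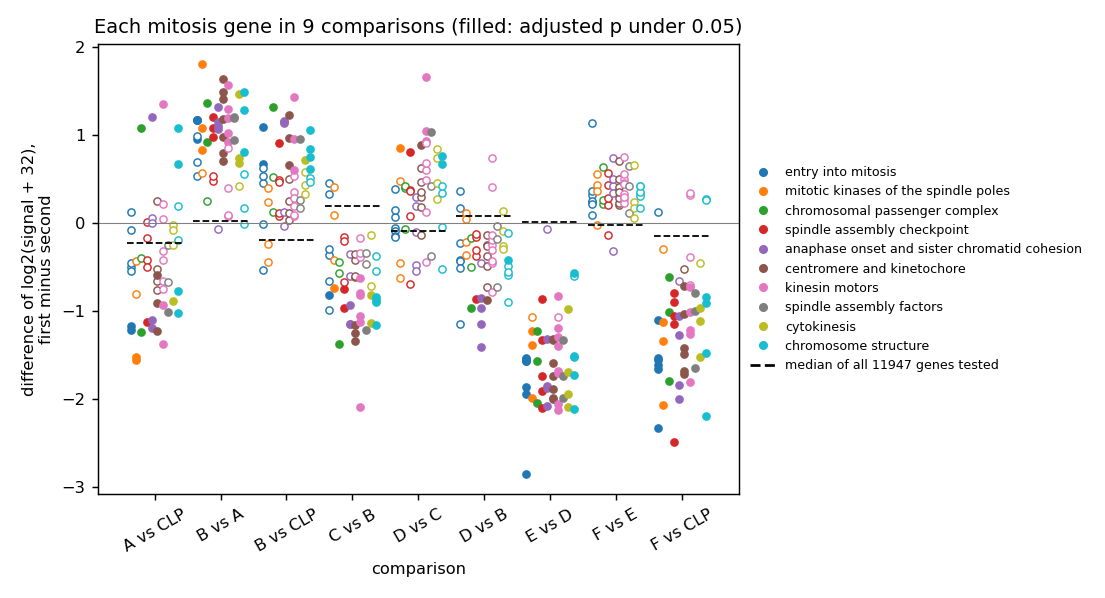
Difference in log2(signal + 32) of each of the 53 mitosis genes in the 9 comparisons, coloured by role; filled points passed an adjusted p under 0.05 and the dashed line is the median of the 11947 genes tested. In E against D all 53 points lie below 0 and 49 are filled, and in F against E none is filled.

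Among the genes of entry into mitosis, Ccna2, Ccnb2, Cdc25b, Cdc25c, Cdca3, Cdk1 and Foxm1, all 7 fell from D to E. Ccna2, cyclin A2, which pairs with Cdk1 and Cdk2, had lowest, median and highest signals of 4633, 6823 and 7888 in the CLP, 5029.5, 5839 and 11967 in A and 6729.7, 10245 and 16266 in B. The 5 signals were 9284, 8145, 5362, 3582 and 4183 in C, 7479, 8312, 7569, 6389.7 and 7855 in D, 1627, 5731, 1999, 2429 and 2186 in E and 2039, 4220.0, 2349.8, 3057 and 3613 in F. Every D array lay above every E and F array, E array 2 stood above the other E arrays, and the D arrays lay within the range of the A arrays and overlapped those of the CLP and B. From D to E, Ccna2 fell by 1.57 ± 0.27 (adjusted p = 5.34e-05).

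Cdk1, the kinase itself, ran from 885, 2141 and 2784 in the CLP (lowest, median and highest) to 93.5, 1041 and 1439 in A and 959, 2101 and 2369 in B. Its signals were 3116, 3131, 1011, 706 and 743 in C, 1550.3, 2011, 1037, 1092 and 1233 in D, 359, 882, 316, 457 and 344 in E and 438, 744, 528, 432 and 698 in F. C arrays 1 and 2 were the highest of all 41 arrays, and A array 6 was the lowest at 93.5. Cdk1 fell by 1.18 ± 0.38 from the CLP to A, a call that was lost without A array 6 (adjusted p = 0.0128 with it). It rose by 1.17 ± 0.38 from A to B, a call lost without that array too. It fell by 1.55 ± 0.45 from D to E (adjusted p = 0.0191), which was lost without D array 2 or without E array 1, 3 or 5.

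Cdc25c was low in E. Its signals were 23.2, 194, 8.2, 55.6 and 63.7 in E, all but that of array 2 below the medians of those arrays, against 821, 679, 753, 286 and 517 in D and 20.4, 258, 489, 182 and 95.9 in F. The size of its fall from D to E therefore depended on the number added to each signal: it fell by 2.85 with 32 added and fell by 3.72 with 1 added, and was called both times. Cdc25b, the related phosphatase, followed another course: it was 1604, 1853, 2486, 2091 and 2522 in C and 1855, 1986, 1697, 2489 and 1769.9 in D, above every CLP array, and it fell by 1.57 ± 0.31 from D to E (adjusted p = 0.00032). The other entry genes fell from D to E as well. Ccnb2, cyclin B2, fell by 1.87, Cdca3, a trigger of mitotic entry, fell by 1.94, and Foxm1 fell by 1.53.

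Of the 4 mitotic kinases Plk1, Plk4, Aurka and Nek2, 3 fell from D to E. Plk4, the kinase that starts centriole duplication, had lowest, median and highest signals of 1038, 1461 and 1641 in the CLP, 613, 970.1 and 1672 in A and 1484, 1750.1 and 2287 in B. It measured 1514, 1808, 920.3, 595 and 925 in C, 2586, 2093, 1963, 1875 and 1449 in D, 813, 1187, 612, 738 and 816 in E and 1096, 1142, 855, 1293 and 1199.9 in F. D held its highest mean, with every D array above every E and F array. Plk4 rose by 0.85 ± 0.24 from C to D (adjusted p = 0.00779, lost with the mean of its probe sets) and fell by 1.24 ± 0.24 from D to E (adjusted p = 0.00024). Aurka ran from 464.8 to 1522 in the CLP and from 66.3 to 604.5 in A, and fell by 1.39 ± 0.43 from D to E (adjusted p = 0.0302), a call lost without any of D arrays 1, 2 and 4 and E arrays 3 and 4. Nek2 fell by 2.00 there. Plk1, the polo-like kinase with roles throughout mitosis, had low signals, from 8.3 to 122 in E and from 90.8 to 242 in D, and fell by 1.13 ± 0.38 from the CLP to F (adjusted p = 0.0163).

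The chromosomal passenger complex corrects faulty attachments and then moves to the midzone, and its 3 measured members, Aurkb, Birc5 and Cdca8, all fell from D to E. Cdca8 had lowest, median and highest signals of 8821, 10459 and 12280.2 in the CLP, 14996, 19356 and 39971 in A and 14882, 23449 and 49546 in B. Its signals were 14264, 11457, 9739, 8368 and 7177 in C, 14260.3, 12908, 13262, 12746 and 13016 in D, 4759, 8864, 4195, 4819.5 and 6678 in E and 5639, 7202, 6464, 8917 and 6027 in F. Every A and B array lay above every CLP array, with A arrays 4 and 7 and B arrays 1 and 4 the highest, and those were among the arrays with the brightest probe sets. Cdca8 fell by 1.23 ± 0.25 from D to E (adjusted p = 0.000593). Aurkb, the Aurora B kinase, fell by 1.57 and Birc5, survivin, fell by 2.05, and for both no E array reached a D array.

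All 5 spindle checkpoint genes, Bub1, Bub1b, Bub3, Mad2l1 and Ttk, fell from D to E. Bub3, which brings Bub1 and Bub1b to kinetochores, had lowest, median and highest signals of 4305, 5582 and 11352 in the CLP, 3867, 5376 and 11719 in A and 6026, 9144 and 11189 in B. It then measured 5915, 6473, 4583, 4088 and 3835 in C, 6582, 6849.7, 5974, 5974 and 6376 in D, 3317, 3458, 3488, 3479 and 3535 in E and 2619, 4036, 2528, 3505 and 3193 in F. E array 2 did not stand out for Bub3, unlike for most members. It fell by 0.87 ± 0.23 from D to E (adjusted p = 0.0088), a call lost with the mean of its probe sets. Bub1b fell by 1.91 and the kinase Bub1 fell by 2.10. Ttk, the kinase Mps1 that starts checkpoint signalling, fell by 1.75 and Mad2l1, the inhibitor of Cdc20, fell by 1.33.

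Among the genes of anaphase and exit, Cdc20, Ube2c, Pttg1, Espl1 and Cdca5, 4 of 5 fell from D to E and 4 of 5 were lower in D than in B. Cdc20, the activator of the anaphase-promoting complex, was higher in B than in the CLP by 1.15 ± 0.30 (adjusted p = 0.0028), lower in D than in B (-0.96, adjusted p = 0.0211), and fell by 1.88 ± 0.35 from D to E (adjusted p = 0.000156). Ube2c, its ubiquitin-conjugating enzyme, had like differences of 1.15, -0.86 and -1.86. Espl1 fell by 1.32 and Cdca5, sororin, which protects cohesion, fell by 2.08 from D to E.

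Pttg1, as read by its chosen probe set, did not follow the group. Its lowest, median and highest signals were 3936, 5782 and 7029 in the CLP, 5333, 10156 and 38467 in A and 6005, 8965 and 32161 in B. In the later populations it measured 5738, 8236, 5207, 7629 and 4716 in C, 5734, 3338, 3627, 3770.2 and 6386 in D, 3681, 4567, 5083, 4295 and 3551 in E and 3489, 3382, 3627, 2965 and 3415 in F. The 5 E arrays all lay within the range of the D arrays. The highest arrays were A array 4, B array 1 and A array 6, again among the arrays with the brightest probe sets, and without A arrays 4, 6 and 7 its rise from the CLP to A was no longer called.

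All 7 measured kinetochore genes, Cenpa, Cenpe, Cenpf, Cenph, Ndc80, Nuf2 and Spc25, rose from A to B and fell from D to E. Cenpe, the kinesin that moves chromosomes to the spindle equator, had lowest, median and highest signals of 1465, 2089.8 and 3277 in the CLP, 1021, 2799.7 and 3998 in A and 3575, 5073 and 6106 in B. Its other signals were 3005, 3101, 2072, 1484 and 1364 in C, 4639, 4105, 3532, 3219 and 3995 in D, 1130.3, 2299.9, 1088, 1275 and 862 in E and 1169, 1908, 1159, 2116 and 1263 in F. Every B array lay above every CLP and C array, and every D array above every C array. Cenpe rose by 1.22 ± 0.23 from the CLP to B (adjusted p = 7.23e-05), fell by 1.26 ± 0.25 to C (adjusted p = 0.000233), rose by 0.88 ± 0.27 to D (adjusted p = 0.016, lost without C array 4 or 5) and fell by 1.60 ± 0.27 to E (adjusted p = 3.79e-05). The differences between E and D were -1.99 for Cenpf, -1.33 for Cenph of the inner kinetochore and -1.32 for Cenpa, the histone H3 variant that marks centromeres. The Ndc80 complex binds microtubules, and its genes Ndc80, Nuf2 and Spc25 fell, with differences of -1.74, -1.89 and -2.01.

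Among the 9 mitotic kinesins, Kif2c, Kif4, Kif11, Kif15, Kif18a, Kif20a, Kif20b, Kif22 and Kif23, 8 fell from D to E. Kif11, Eg5, which pushes the spindle poles apart, had lowest, median and highest signals of 3283, 4612 and 6164 in the CLP, 2994, 4621 and 5911 in A and 7183, 7994 and 11136 in B. It measured 7112, 6369.8, 3446, 2062 and 2895 in C, 8204, 7566, 7272, 7083 and 7599.5 in D, 1795, 4257, 1551, 2485 and 2100.2 in E and 2199, 4075, 3442, 4106 and 3430.5 in F. Every B and D array lay above every CLP and A array, C array 1 reached D, and the other C arrays lay below it. Kif11 rose by 0.93 ± 0.25 from C to D (adjusted p = 0.00522) and fell by 1.71 ± 0.25 from D to E (adjusted p = 2.44e-06).

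Kif23, which bundles midzone microtubules for cytokinesis, changed at more steps. It had lowest, median and highest signals of 1362, 1821 and 2708 in the CLP, 3018, 4319 and 11787 in A and 3668, 4418 and 8422 in B. It was 2388, 2458, 774, 499 and 859.5 in C, 3771, 3498, 3612, 3929 and 3693 in D, 1174, 2572, 992, 1388 and 1187 in E and 1462, 2850.2, 2139, 2544 and 3025 in F. All A, B and D arrays lay above all CLP, C and E arrays. From D to E it fell by 1.40 ± 0.33 (adjusted p = 0.00287). Its rise from the CLP to A was not called with the mean of its 3 probe sets (0.17). The other probe sets correlated with the chosen set at 0.22 and 0.58. They differed by -0.53 and -0.30 between A and the CLP, and neither was called there, in B against the CLP or from B to C. From C to D they differed by 1.22, which was called, and 0.47, which was not. Both rose from A to B and fell from D to E.

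Kif18a, which limits chromosome oscillation, fell by 2.06 from D to E, Kif4, the chromokinesin that shapes chromosome arms, fell by 1.68, and Kif15, another motor of the spindle, fell by 1.19. Kif20b, a kinesin of the midbody, fell by 1.30 and Kif22, a chromokinesin, fell by 0.83. Kif20a, which carries Aurora B to the midzone, measured 680.8 to 1826 in E and 1731 to 2177 in D, so that its arrays overlapped.

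All 3 genes of spindle assembly, Tpx2, Nusap1 and Hmmr, rose from A to B and fell from D to E. Nusap1, which bundles spindle microtubules near chromosomes, had lowest, median and highest signals of 1754, 2310.4 and 4315 in the CLP, 837, 2646 and 3278 in A and 3726, 5394 and 6228 in B. On later arrays it measured 4203, 4433, 1952, 1151 and 1288 in C, 5787, 5309.5, 4504, 4229 and 3495 in D, 1012, 2024, 738, 1296 and 920.2 in E and 995, 2049, 1366, 2068 and 1392 in F. A array 4 was far below the other A arrays, and C arrays 1 and 2 were in the range of D. Nusap1 rose by 1.21 ± 0.27 from A to B (adjusted p = 0.000601) and fell by 2.00 ± 0.32 from D to E (adjusted p = 1.46e-05). Tpx2, the activator of Aurora A, fell by 1.75 and Hmmr, which helps to organize the poles, fell by 1.34.

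The 4 cytokinesis genes, Ect2, Anln, Prc1 and Racgap1, fell from D to E. Prc1, which crosslinks midzone microtubules, had lowest, median and highest signals of 1660.4, 2135 and 2716 in the CLP, 1451, 1851 and 5686 in A and 2328, 3227 and 6679 in B. Its values were 2801, 3052, 1346, 640.2 and 1039.8 in C, 2989, 3143, 2681, 2518 and 2361 in D, 727, 1489, 699, 785 and 613 in E and 746, 1139.9, 754, 861 and 1213 in F. A array 7, B array 1 and E array 2 stood above the rest of their populations, and C array 4 was among the lowest of all. Prc1 fell by 1.70 ± 0.32 from D to E (adjusted p = 0.00017). Ect2, which activates RhoA at the cleavage furrow, fell by 2.09 and Anln, the anillin scaffold of the contractile ring, fell by 1.95. Racgap1, the partner of Kif23 in centralspindlin, fell by 0.98, a call lost without E array 5.

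Of the 6 genes of chromosome structure, Top2a, Mki67, Ncapg, Ncapd2, Smc2 and Smc4, 5 fell from D to E. Mki67, which coats mitotic chromosomes and is the antigen stained as Ki-67 to count dividing cells, was the exception. Its lowest, median and highest signals were 12243, 13718 and 15461 in the CLP, 16829.7, 21707 and 50574 in A and 21053, 25524 and 43613 in B. It measured 14837, 13410.3, 11586, 12236 and 11085 in C, 21278, 19250.4, 19746, 18399 and 21585 in D, 11974, 19770.4, 10515, 12367 and 12879 in E and 13055, 18047, 15898, 17787 and 17416 in F. Only E array 2 reached the D arrays, and A arrays 4, 6 and 7 and B arrays 1 and 4 were the highest of all. Its difference between E and D was -0.60 ± 0.23 (adjusted p = 0.104); with quantile normalization it was -0.85 and was called. Top2a, topoisomerase II alpha, which untangles sister chromatids, fell by 1.73 from D to E. The condensin genes Ncapd2, Ncapg, Smc2 and Smc4, whose products compact chromosomes, fell, with differences of -2.12, -1.53, -1.52 and -0.57, and the call of Smc4 was lost with median centring and without E array 3.

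**Figure D4:**
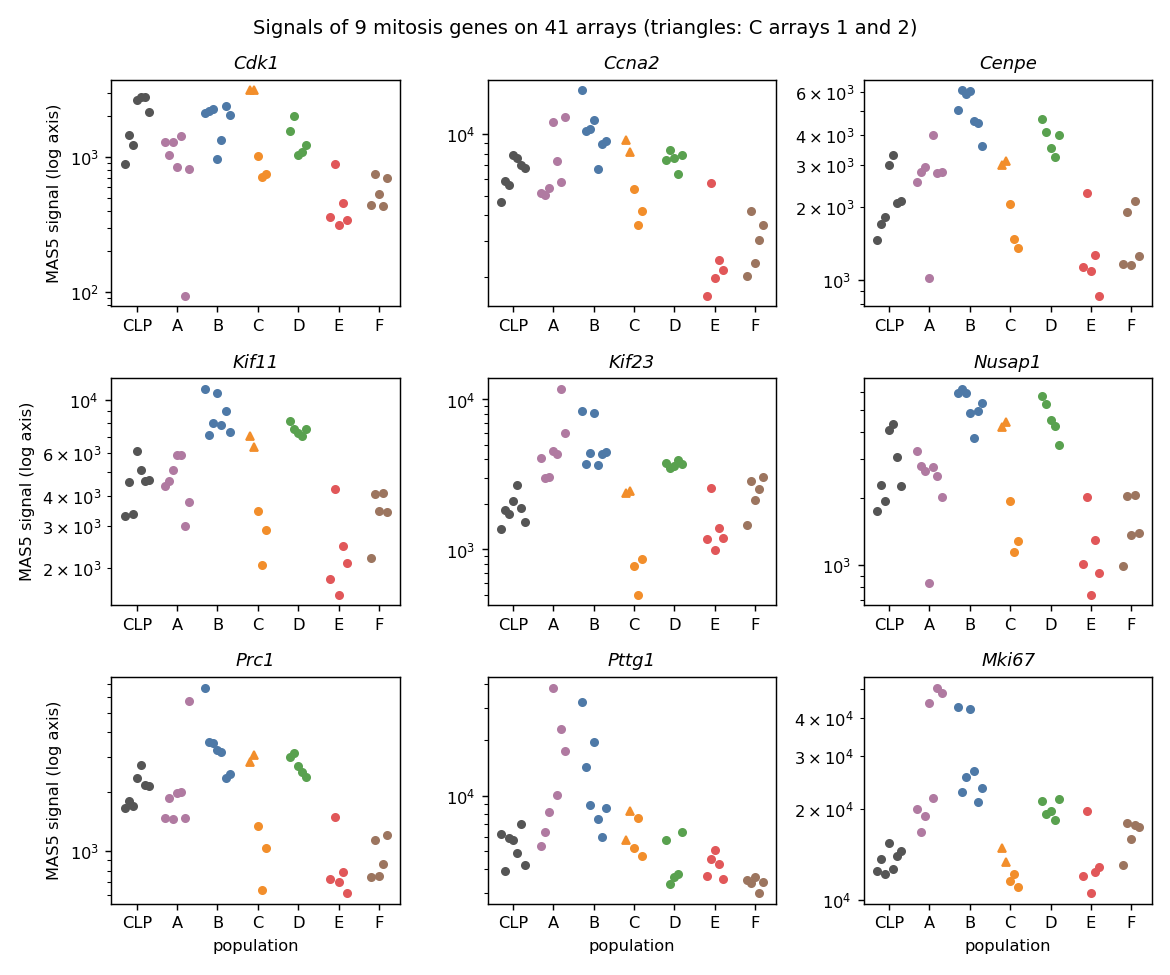
MAS5 signals (log axis) of 9 mitosis genes on the 41 arrays by population, 1 point an array, with C arrays 1 and 2 as triangles. Most panels drop from D to E, Cdk1 peaks on C arrays 1 and 2 (3116 and 3131), and Pttg1 and Mki67 are highest on A and B arrays.

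Within C, arrays 1 and 2 stood apart from arrays 3 to 5. Both lay above all 3 others for 49 of the 53 members and both below for 1, Cdc25b, with a median difference of 1.27 over the members as log2 means. The largest was that of Cdc25c (2.35), at 1858 and 1667 on arrays 1 and 2 against 446.0, 325.4 and 224.4 on arrays 3 to 5. Ube2c (1.98), Cdk1 (1.91), Aurka (1.85) and Cenpf (1.80) came next. Aurka measured 1976 and 1975 on arrays 1 and 2 and 819.2, 325.8 and 535.0 on the others. For 11 members, Cdk1, Ccnb2, Foxm1, Plk1, Aurka, Birc5, Mad2l1, Cenpa, Kif20a, Tpx2 and Racgap1, C arrays 1 and 2 were the highest of all 41 arrays. The mean of C arrays 1 and 2 was above that of B for 29 members and above that of D for 37, while the mean of C arrays 3 to 5 was above B for 1 and above D for 3. At the other end, Smc4 (0.27), Pttg1 (0.26) and Kif22 (0.11) overlapped between these arrays. The labels give the 5 C arrays the same description, and this split was seen in the data and not tested. How many of all genes part in this way was not counted, so the split cannot be called particular to the mitosis genes.

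The S phase genes did not part in the same way. Their medians on C arrays 1 to 5 were 12.08, 12.36, 12.41, 11.97 and 12.06 as log2(signal + 32), where those of the mitosis genes were 11.36, 11.59, 10.55, 10.05 and 10.19. The neutrophil sums on these arrays were 81905, 68807, 65711, 57434 and 58976, and the B lineage sums 47753, 42135, 50026, 64789 and 58118. Arrays 1 and 2 also had the higher sums of erythroid markers, 13249 and 12551 against 7821 to 10953 on the others, of monocyte markers, 13786 and 13047 against 10380 to 11058, and of natural killer and T cell markers, 8177 and 3169 against 1961 to 2933. The part of other cells in the split was not tested.

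E array 2 was above all 4 other E arrays for 50 of the 53 members, by a median of 0.92. The share of all genes that were highest on this array was not counted, so the trait cannot be called particular to the members. Cdc25c measured 194.4 there against 8.2 to 63.7, all 4 of them below their array medians, and Espl1 differed by -0.07. Its S phase median of 11.06 was also the highest of the E arrays, which otherwise ran from 10.33 to 10.70. Its neutrophil, erythroid and monocyte sums, given above, were the highest in E, and their part was not tested.

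Kif22, Mki67, Pttg1 and Smc4, the members that followed the others least, were also measured by other probe sets, except Mki67. In all, 37 members had 70 further probe sets, of which 62 passed the filter and were tested. The chosen and other probe sets of a gene correlated across the 41 arrays with a median of 0.58, from -0.48 to 0.94, as a description. The fall from D to E was called for 41 of the 62. From A to B, 38 of the 62 rose, and from the CLP to A, 24 fell and 1 rose, 2 of them opposite to the call of the chosen probe set. In B against the CLP, 8 were higher and 0 lower. From B to C, 14 fell and 1, a set of Bub3, rose against the call of the chosen set. These calls come from a fit of single probe sets. The share of all probe sets called in that fit was not counted, so these counts have no background beside them.

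The 2 further probe sets of Kif22 fell from D to E and from the CLP to A. They differed by -1.85 and -1.82 between E and D and by -1.24 and -1.17 between A and the CLP, each called, where the chosen set differed by -0.83 and 0.21, and they correlated with it at 0.18 and 0.24. Neither was called from B to C or from C to D, where the chosen set fell and then rose. For Smc4, 1 of 2 others had the sign of the chosen set at every step (correlation 0.94), and the other fell by 0.60 from the CLP to A, against the rise of 0.67, and by 1.25 from D to E. Of the other sets of Cdca8, 1 differed by 0.49 between A and the CLP and was not called, and 1 fell by 0.82. For Pttg1 the differences between E and D were -0.11 and -0.45, neither called, beside -0.07 for the chosen set. Neither other set of Pttg1 was called from the CLP to A (-0.15 and -0.16), where the chosen set rose. Nor was either called in D against B (0.22 and -0.73), where the chosen set was lower. From A to B, 1 of them rose by 1.13 and was called, and the other differed by -0.19. The 4 other sets of Bub3 correlated with the chosen set at -0.30 to 0.06, and their differences between E and D, from -0.54 to -0.13, were not called. From B to C, 1 of them rose by 0.73, where the chosen set fell by 0.75, and the other 3 were not called. Which transcripts these sets read was not tested.

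Of 100 further mitosis genes in 6 lists, 98 were measured and tested. From the CLP to A, 40 fell and 5 rose, against 25.5% and 11.5% of all genes. From A to B, 50 rose and 2 fell, against 16.8% and 14.5%, and in B against the CLP 15 were higher and 4 lower, against 8.77% and 18.9%. From B to C, 19 fell and 3 rose, against 8.8% and 14.2%, and from C to D, 14 rose and 2 fell, against 7.46% and 13.6%, with a median of 0.04. In D against B, 12 were lower and 4 higher, against 14.7% and 15.9%. From D to E, 44 of 98 fell and 0 rose in the limma fit, against 4.21% and 3.89%, beside 49 of 53 members. The median was -0.89, beside -1.60 for the members. Without adjustment, 65 were lower and 1 higher, against 8.58% and 8.46% of all genes. From E to F the limma fit called 0 of them, and 5 were higher and 0 lower without adjustment, against 2.57% and 3.57%. In F against the CLP 59 were lower and 3 higher, against 26.6% and 15.2%. The 22 genes of spindle and cytokinesis came closest to the members, with 18 falling and a median of -1.55. Genes of the anaphase-promoting complex, which acts in G1 as well, and of its partners Fzr1, Fbxo5 and Ube2s stood at the other end. Of these, 1 of 15 fell, near the share of all genes, with a median of -0.25. In between were 7 of 11 checkpoint genes, 9 of 24 kinetochore genes, 5 of 12 entry genes and 4 of 14 condensin and cohesin genes. 

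Genes of S phase, when the DNA is copied before mitosis, were set beside the mitosis genes, with the shares of all genes as given above. Of 25 measured, 12 fell and 4 rose from the CLP to A, 15 rose and 0 fell from A to B, 11 fell and 1 rose from B to C, and 16 fell and 0 rose from D to E. In B, 9 were higher and 2 lower than in the CLP, and in F, 20 were lower and 0 higher. Without adjustment, the limma fit still had 0 lower from A to B, 0 higher from D to E and 0 higher in F than in the CLP. Between B and D, 14 of 25 were lower in D, with a median of -0.65, while 8 of 53 mitosis genes were lower, with a median of -0.36. From C to D, 3 S phase genes rose and 3 fell. The array medians of the S phase genes averaged 12.48 in B, 12.35 in the CLP, 12.18 in C, 11.89 in D, 11.62 in A, 10.83 in F and 10.61 in E. The difference between the lists was not tested.

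**Figure D5:**
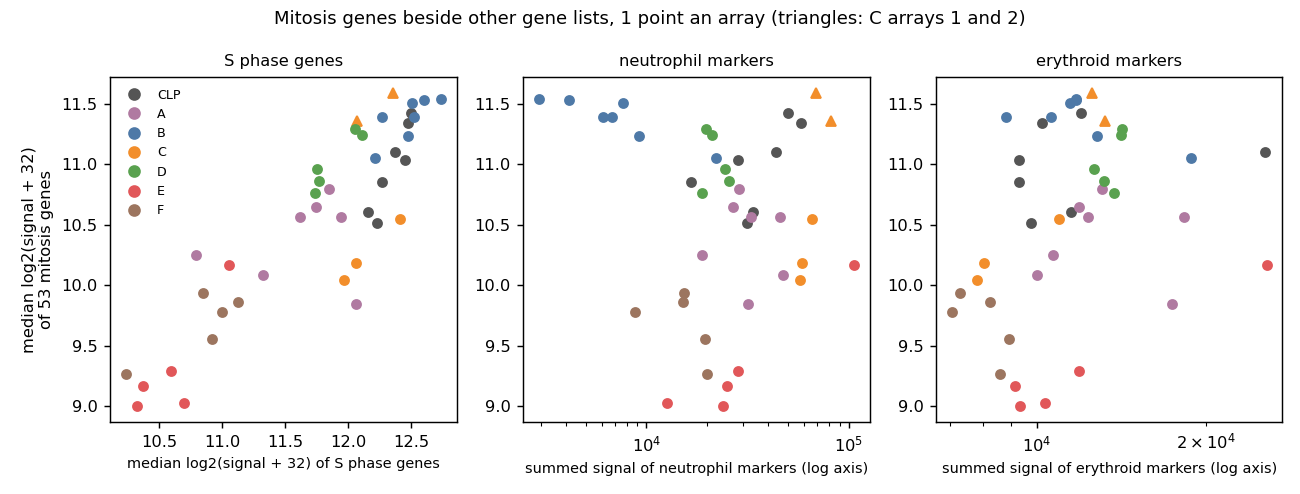
Median log2(signal + 32) of the 53 mitosis genes on each array against the median of the S phase genes and the summed signals (log axes) of neutrophil and erythroid markers, 1 point an array, coloured by population. E and F lie low on both cell cycle axes, C arrays 1 and 2 (triangles) lie above C arrays 3 to 5 at like S phase values, and E array 2 has the highest neutrophil sum, 105815.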

How the data were processed

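Each of 41 sorted samples was read on its own mouse array; per the labels' protocols, RNA was extracted with PicoPure, amplified with NuGEN Ovation Pico and labelled with biotin. The deposited values are linear MAS5 signal intensities, per the submitters' processing notes; the version and genome build are not given in the sources used here, and no scanner files were used. The number of arrays limits the precision. Amplification can distort levels, and the scaling assumes like totals of RNA.

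Intensities were taken as log2(signal + 32). Of 45101 probe sets, 34945 had 1 gene in the annotation table; 18193 genes were represented by their probe set of highest mean, and the 11947 at or above the array median on at least 5 arrays were tested. limma 3.58.1 in R 4.3.3 fitted 7 population means to all 41 arrays (lmFit, then eBayes with trend and robust), giving 9 comparisons and an F-test with Benjamini-Hochberg adjustment; ± beside a difference is the fit's standard error. The scripts were tested on simulated data.

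Every member is named with a value; values by array are given for the member of highest mean in each of 10 roles and a few others chosen after their values were seen. The members and all gene lists were chosen with earlier results of these data known. Array numbers were not used to pair the samples. Same-numbered deviations correlated from -0.25 to 0.22, and in no comparison were all above 0.1. All were positive in E against D (0.04 to 0.13) and in F against E (0.05 to 0.12). Arrays of unlike number were not compared, so this check cannot settle whether the numbers pair the samples. Alternatives were the pseudocount, filter, scaling, probe set rule, array weights, moderation, a fit of the compared populations only, a replicate block, and leaving out arrays.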

Additional observations from a re-analysis of the deposited data

Results flagged for a closer look

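In 77 groups of 5 to 7 arrays, the array median of the members and the 10 members with values by array were examined for an array far from the rest of its population, and 8 were found. The rule flags about 1 in 20 groups by chance. The members vary together and the array median is made of them, so the groups are not independent and no excess over chance can be read from the count. All values are log2(signal + 32), and no cause was tested.

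The array median of the mitosis genes was 10.17 on E array 2 and 8.998 to 9.29 on the other E arrays. Prc1, the midzone crosslinker, was also high there, at 10.57 against 9.33 to 9.67. Prc1 stood apart in 2 further populations, at 12.48 on A array 7 against 10.53 to 10.99, and at 12.71 on B array 1 against 11.20 to 11.80. A array 4 was low for the kinetochore motor Cenpe, at 10.04 against 11.33 to 11.98, and for the spindle protein Nusap1, at 9.76 against 11.00 to 11.69. The checkpoint gene Bub3 was high on CLP array 1, at 13.47 against 12.08 to 12.63. The spindle motor Kif11 was low on F array 1, at 11.12 against 11.76 to 12.01.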

How the results depend on the processing

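The fall of the mitosis genes from D to E kept its direction under every alternative run, with 48 to 52 members called beside 49, and 46 to 50 when single arrays were left out, and the median of the members kept its sign in all 9 comparisons under quantile normalization and median centring. The smaller steps depended more on the setting, and the cause was not tested. From the CLP to A, quantile normalization called 2 members higher, averaging each gene's probe sets 1, and 10 were lower with median centring, 11 with a fit of only those populations and 9 without A arrays 4, 6 and 7, an alternative chosen after seeing the data. From A to B, 24 were higher with the fit of only those populations. B against the CLP had 33 higher with median centring and 1 lower with array weights. From C to D, 14 were higher and 1 lower with the fit of only those populations, 20 higher with array weights and 17 without C arrays 1 and 2. D against B had 1 higher with quantile normalization, with array weights and without A arrays 4, 6 and 7, and 4 lower with quantile normalization, 24 with median centring, 17 with the fit of only those populations, 16 with array weights and 14 without A arrays 4, 6 and 7. F against E had 1 higher with the fit of only those populations, 2 with array weights and 1 without A arrays 4, 6 and 7, and F against the CLP 2, 2 and 1. With median centring the array medians differed by 0.82 between B and the CLP and by -0.77 between D and B. Leaving out single arrays gave 4 to 12 members higher from C to D, and 0 to 1 higher and 5 to 12 lower in D against B. Among single genes, quantile normalization turned the sign of Smc4 in A against the CLP (-0.087), of Mki67 in B against A (0.25) and of Smc4 in D against B (0.16). Averaging probe sets turned Bub3 (-0.75), Kif11 (-0.57) and Kif22 (-0.73) in A against the CLP and Kif22 (-0.91) in F against the CLP. Without A arrays 4, 6 and 7, Mki67 was 0.55 higher in B than in A. With the replicate number as a block, 40 members rose from A to B, 49 fell from D to E and 43 were lower in F than in the CLP, and no count moved by over 1.5 times. Signals below the array median, such as those of Plk1 and Kif18a on all 5 E arrays, limit what can be seen for the lowest members.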
